A study of Drosophila melanogaster with 9 samples.

Results

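Neuropeptide precursor genes encode the short proteins from which neurons and endocrine cells cut their peptide messengers. The 40 genes examined here were listed by their FlyBase symbols as precursors of neuropeptides and peptide hormones other than the insulin-like peptides. Of these, 39 were found among the 17489 genes counted in the files, 38 through the gene name table and Nplp2 through the identifier that the study's own table gives it. Gpa2 (glycoprotein hormone alpha 2) was not analysed here. RNA was measured in central brains of male w1118CS flies, collected 2 days after eclosion and kept 25 to a vial until 7 days old. The titles of all 9 samples carry CD, the study's abbreviation for its control diet. Refed flies were kept on water alone from 5 PM, moved at 9 AM to 400 mM D-glucose and left to feed for 2 h. Sated flies had their food until 1 h before dissection. Fasted flies were kept on water from 5 PM for 20 h in all. Lights came on at 9 AM for all groups. Each group had 3 samples of 10 pooled brains, so differences between single flies were not seen, and females were not part of the design. The records describe 4 biological replicates per condition, of which 3 were analysed here. The study's results text places these refed brains 1 h after feeding and its methods give 2 h of refeeding. The sample records were followed here.

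A neuropeptide precursor enters the secretory pathway, is cut at pairs of basic residues by convertases such as amon, is often amidated at its carboxyl end, and is stored in dense-core vesicles until release. Most of the released peptides act on G protein-coupled receptors. In the fly brain, small sets of neurons use such peptides to tie feeding, sleep, water balance and memory to the state of the body. The level of a precursor RNA is a measure of transcript abundance and not of the peptide stored or released. In pooled brains, fewer cells of a type and less RNA per cell cannot be told apart.

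The libraries held between 4957138 and 7897838 reads on genes. Reads on the strand opposite to a gene made up 9.59% to 12.4% of stranded reads in 6 libraries, but 20.6%, 24.6% and 28.5% in sated replicate 2, fasted replicate 1 and fasted replicate 2. No pair of replicates agreed as closely as sampling of reads alone would allow. Levels are given as CPM, reads per 1000000 gene reads after scaling by edgeR's TMM method across the 9 libraries. The neuron markers elav, nSyb, Syt1, brp and para summed to between 8004 and 9465 CPM, and the glia markers repo, alrm, Gs2, moody and Indy to between 1561 and 1797 CPM, so both classes of brain cell were represented. The 8 retina markers summed to 792 to 928 CPM in refed, 1127 to 1282 in sated and 534 to 990 in fasted brains. The 5 muscle markers reached 264.8 CPM in fasted replicate 2 and at most 76.2 CPM in the other libraries.

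The 39 precursors together took between 0.251% and 0.270% of the gene reads of a library. Their summed level was 2521, 2635 and 2600.0 CPM in refed brains, 2665, 2623 and 2721 CPM in sated brains, and 2604, 2497 and 2575 CPM in fasted brains. The refed libraries overlapped both other groups. Every sated library lay above every fasted one on this scaled level, but not by share of gene reads. That share was 0.263%, 0.256% and 0.270% in sated and 0.264%, 0.251% and 0.255% in fasted libraries. The 6 most abundant members of each library by CPM made up between 55.9% and 59.4% of that sum. To compare genes with one another, the mean CPM over the 9 libraries was divided by the length of the merged exons. On that scale Ms led with 242 CPM per kilobase. It encodes myosuppressin, which quiets visceral muscle. Dsk followed at 175 CPM per kilobase, and encodes drosulfakinin, the fly relative of cholecystokinin and a satiety peptide. The next were sNPF (short neuropeptide F, a feeding and growth peptide made by many brain neurons) at 165, AstC (allatostatin C) at 142, Dh31 (a calcitonin-like diuretic and sleep hormone) at 126 and NPF (neuropeptide F, which promotes feeding) at 108 CPM per kilobase. These 6 genes lay above 97.6% of all genes with counts on the same scale, where Nplp2, whose coordinates and length were taken by name from the annotation, was not ranked.

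**Figure D1:**
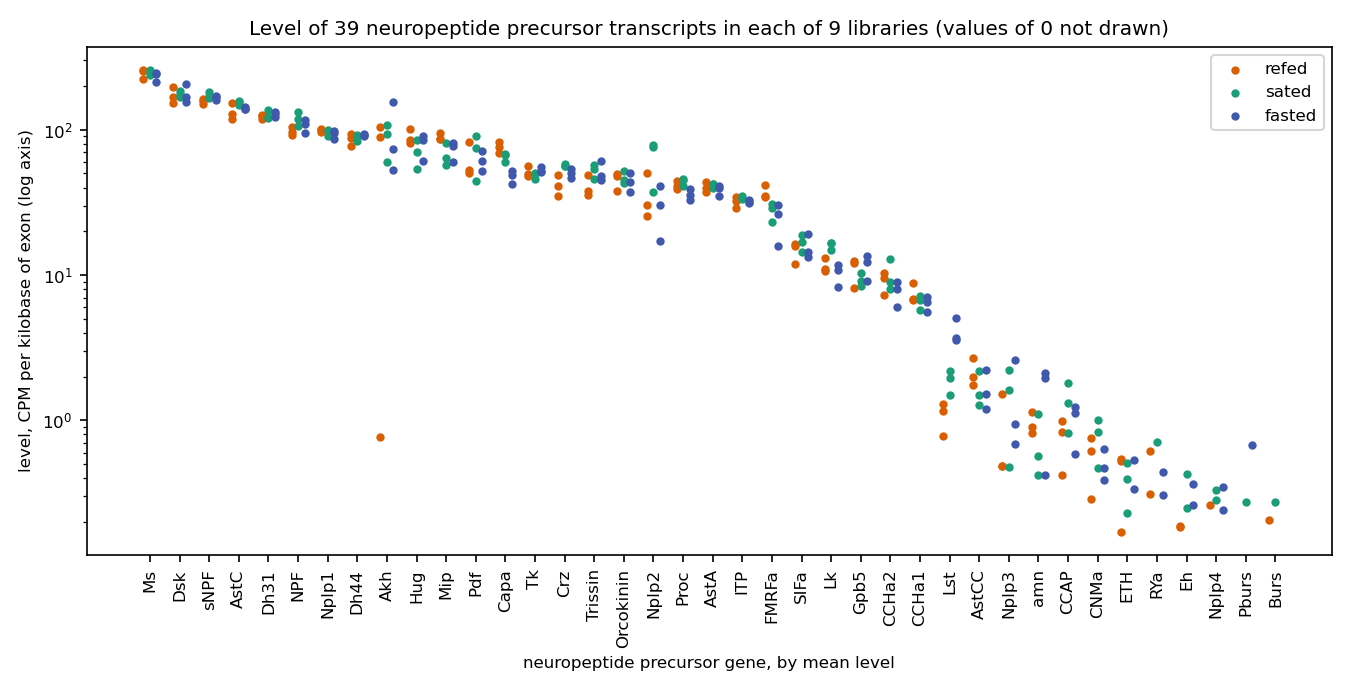
Level of each of the 39 precursor transcripts in CPM per kilobase of exon on a log axis, with 1 point per library and the groups refed, sated and fasted side by side. Levels ran from 242 CPM per kilobase for Ms to 0.0532 for Burs, and Akh in refed replicate 3 lies far below its other libraries.

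At the other end, 9 members had too few reads to be tested between refed and fasted or sated and fasted brains. These were CNMa, CCAP, Nplp3, ETH, Eh, RYa, Nplp4, Pburs and Burs. CCAP (crustacean cardioactive peptide) had 76 reads over the 9 libraries, CNMa (CNMamide) 71, Nplp3 38 and ETH (ecdysis triggering hormone, made outside the brain in epitracheal cells) 17. Eh, the eclosion hormone, had 8 reads, RYa 7 and Nplp4 5. The bursicon subunits Pburs and Burs, which harden the cuticle of the newly emerged fly, had 3 and 2 reads. Of the 5 ecdysis and cuticle genes, none therefore entered those comparisons. CNMa passed the count filter only between refed and sated brains.

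Members differed widely in how well replicates agreed. The pooled within-group SD of log2(CPM + 0.5) was 0.06 for sNPF and 0.07 for both Nplp1 and Dh31. It was 0.39 for Pdf, the pigment-dispersing factor of the clock neurons, which ran between 30.4 and 61.1 CPM. It was 0.57 for Nplp2 and 2.02 for Akh, the largest of the 39. A fold change of a given size was therefore easier to see in sNPF than in Akh. Each pair of groups was compared with edgeR's quasi-likelihood test on its own 6 samples, with Benjamini-Hochberg adjustment over all genes tested and a threshold of 0.05. With 3 samples a group, the smallest two-sided p of an exact permutation test is 0.1, so it was not used for single genes.

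The comparison of refed with fasted brains sets flies given glucose after a fast against flies left on water. By the recorded times the groups also differed in length of fast and in hour of dissection. These cannot be told apart from the meal. Of the 30 members tested, 1 passed the threshold and was lower in refed brains, where 0.111% of the 9025 genes tested passed and 0.0554% passed and were lower. Without fasted replicate 3, 3 members passed, where 264 of the 9339 genes tested passed. Without any other single library of this comparison no member passed, where 2 to 5 genes passed in all. Without adjustment, 7 of the 30 members had a p under 0.05, against 6.77% of all genes tested. Of these 4 were higher in refed brains, where 2.66% of all genes were, and 3 lower, where 4.11% were. The refed and fasted samples did not overlap for 5 members, against 12.1% of all genes tested. They were higher in refed brains for 4 of them (7.69% of all genes) and lower for 1 (4.37%). The median log2 fold change was -0.01 over the 30 members and -0.01 over all genes, and 14 members had a value above 0, against 47.1% of all genes. By role, the median was -0.08 for the 12 tested precursors of feeding and energy balance, 1 of which passed, and -0.05 for the 6 of water and ion balance. It was 0.03 for the 10 of clock, sleep, stress, memory and muscle, and 0.18 for Nplp1 and Nplp2, with no gene past the threshold among these.

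Lst was the member that fell. It encodes limostatin, a hormone of the corpora cardiaca that restrains insulin secretion when nutrients are scarce. It lies on chromosome 2R of BDGP6 from 16574579 to 16576586 on the minus strand, as 1 exon block with no other annotated exon over it on either strand. Lst had 2.59, 1.58 and 2.33 CPM in refed brains, 2.99, 4.37 and 3.96 CPM in sated brains, and 7.38, 7.21 and 10.1 CPM in fasted brains. Every refed sample lay below every sated sample, and every sated sample below every fasted sample. The means were 2.17 ± 0.528 CPM in refed, 3.77 ± 0.709 CPM in sated and 8.23 ± 1.62 CPM in fasted brains (SD, n = 3 each), so the refed mean was 0.263 times the fasted mean. In refed against fasted brains the log2 fold change was -1.95 (standard error, SE, of the fit 0.26, edgeR adjusted p = 0.0348). These levels rest on few reads, 20, 12 and 17 in refed, 20, 25 and 31 in sated, and 40, 36 and 79 in fasted libraries. Opposite-strand reads over Lst numbered at most 14 in any library.

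The call for Lst was close to the threshold. Leaving out refed replicate 1, 2 or 3, or fasted replicate 1 or 2, gave adjusted p-values in edgeR between 0.0553 and 0.191, and leaving out fasted replicate 3 gave 0.0136. Over these 6 fits the log2 fold change stayed between -2.09 and -1.76.

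Akh encodes adipokinetic hormone, which the corpora cardiaca release to mobilise stored lipid and sugar. It had 56.2, 47.5 and 0.411 CPM in refed brains, 58.1, 32.0 and 50.2 CPM in sated brains, and 83.6, 39.5 and 28.1 CPM in fasted brains. Refed replicate 3 had 3 reads of Akh, against 183 to 453 in the other 8 libraries. The other 8 libraries also spread widely, from 28.1 to 83.6 CPM, with no order by group, and the log2 fold change of refed against fasted brains was -0.53 (SE 0.78, edgeR adjusted p = 0.907). Without refed replicate 3 it was 0.055 (edgeR adjusted p = 0.986), and without fasted replicate 1 it was 0.054 (edgeR adjusted p = 0.999). Lst, known from the same gland, had 17 reads in refed replicate 3, close to the 20 and 12 of the other refed libraries. In fasted brains the library with the most Lst, replicate 3, had the least Akh. Whether the amount of gland in each sample bears on Lst was not tested beyond these values.

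Capa was second by p-value. Its precursor yields capa peptides, which act on the Malpighian tubules, and a pyrokinin. Capa had 47.9, 53.0 and 57.6 CPM in refed brains, 46.9, 41.6 and 47.0 CPM in sated brains, and 34.0, 29.2 and 36.1 CPM in fasted brains. Every refed sample lay above every sated sample, and every sated sample above every fasted sample, the reverse of the order seen for Lst. The means were 52.8 ± 4.86 CPM in refed, 45.1 ± 3.10 CPM in sated and 33.1 ± 3.50 CPM in fasted brains (SD, n = 3 each). The log2 fold change of refed against fasted brains was 0.65 (SE 0.10), and its adjusted p of 0.0669 in edgeR missed the threshold. DESeq2's Wald test gave 0.66 with an adjusted p of 0.00330, and edgeR without fasted replicate 3 gave 0.72 with an adjusted p of 0.0138. With the strand share of each library as a covariate it was 0.54 (edgeR adjusted p = 0.378), and without any other single library the edgeR adjusted p lay between 0.0849 and 0.328. Over 18 alternatives Capa passed in 6. Capa lies on chromosome 3R from 29912991 to 29914346 and, with 146 to 420 reads in a library, was counted more deeply than Lst.

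**Figure D2:**
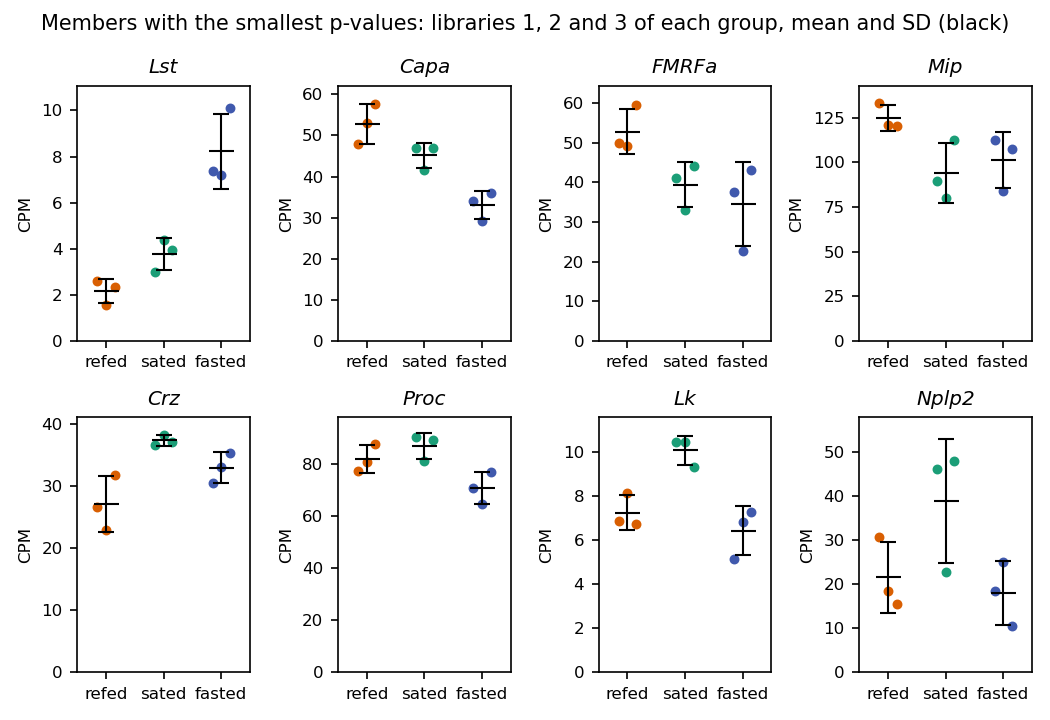
CPM of the 8 members that were among the 5 smallest p-values of a comparison, except NPF, which is plotted with the feeding peptides, with points for libraries 1, 2 and 3 of the refed, sated and fasted groups and the mean ± SD in black. Lst stood at 1.58 to 4.37 CPM in refed and sated brains, against 7.21 to 10.1 CPM in fasted brains, and Capa ran the other way.

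The members next in order of p were FMRFa, Mip and Crz, and none of these passed. FMRFa encodes the FMRFamide peptides, which modulate muscle and stress-induced sleep. It had 49.8, 49.0 and 59.4 CPM in refed brains, 41.1, 33.0 and 44.1 CPM in sated brains, and 37.7, 22.6 and 43.1 CPM in fasted brains. The refed samples lay above all others, and fasted replicate 2 was the lowest. Set against fasted brains, refed brains had a log2 fold change of 0.58 (SE 0.18, edgeR adjusted p = 0.700). It was 0.37 without fasted replicate 2 and 0.29 with the strand share of each library as a covariate. Mip encodes the myoinhibitory peptides, which act in satiety and sleep. It had 133.1, 121 and 120.4 CPM in refed brains, 89.6, 80.2 and 112 CPM in sated brains, and 113, 83.7 and 107 CPM in fasted brains. Here too the refed samples lay above all others, with a log2 fold change of 0.28 against fasted brains (SE 0.10, edgeR adjusted p = 0.705). Crz encodes corazonin, a stress hormone related to gonadotropin-releasing hormone. It had 26.6, 22.9 and 31.8 CPM in refed brains, 36.6, 38.2 and 37.0 CPM in sated brains, and 30.5, 33.0 and 35.3 CPM in fasted brains. The refed and fasted ranges of Crz overlapped, with a log2 fold change of -0.30 (SE 0.12, edgeR adjusted p = 0.705).

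The best-known feeding peptides stood close to their fasted levels after the glucose meal. NPF had 55.0, 58.1 and 62.5 CPM in refed brains, 71.2, 78.8 and 63.2 CPM in sated brains, and 70.2, 65.9 and 56.9 CPM in fasted brains. Its log2 fold change of refed against fasted brains was -0.15 (SE 0.09, edgeR adjusted p = 0.764). sNPF, the most abundant member by CPM, had 385, 399 and 365 CPM in refed brains, 421, 444 and 404 CPM in sated brains, and 416, 389 and 408 CPM in fasted brains. Its log2 fold change was -0.10 (SE 0.05, edgeR adjusted p = 0.720). A change in sNPF as large as that of Capa would have been many times this standard error.

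AstA (allatostatin A) inhibits feeding. It had 58.4, 54.0 and 64.0 CPM in refed brains, 61.7, 57.8 and 62.2 CPM in sated brains, and 59.6, 51.3 and 58.0 CPM in fasted brains. Its log2 fold change of refed against fasted brains was 0.04 (SE 0.08, edgeR adjusted p = 0.931). Dsk had 87.4, 96.0 and 112 CPM in refed brains, 99.4, 95.5 and 104 CPM in sated brains, and 87.9, 117 and 95.3 CPM in fasted brains. Its log2 fold change was -0.04 (SE 0.12, edgeR adjusted p = 0.961), and the groups overlapped throughout. Hug encodes hugin, a pyrokinin of the subesophageal zone that links taste to feeding. It had 83.2, 87.7 and 104 CPM in refed brains, 72.8, 55.2 and 87.6 CPM in sated brains, and 87.3, 62.5 and 92.9 CPM in fasted brains, with a log2 fold change of 0.15 (SE 0.13, edgeR adjusted p = 0.817). For AstA and Dsk, and for Hug and NPF, the sign of these small values turned with the processing.

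**Figure D3:**
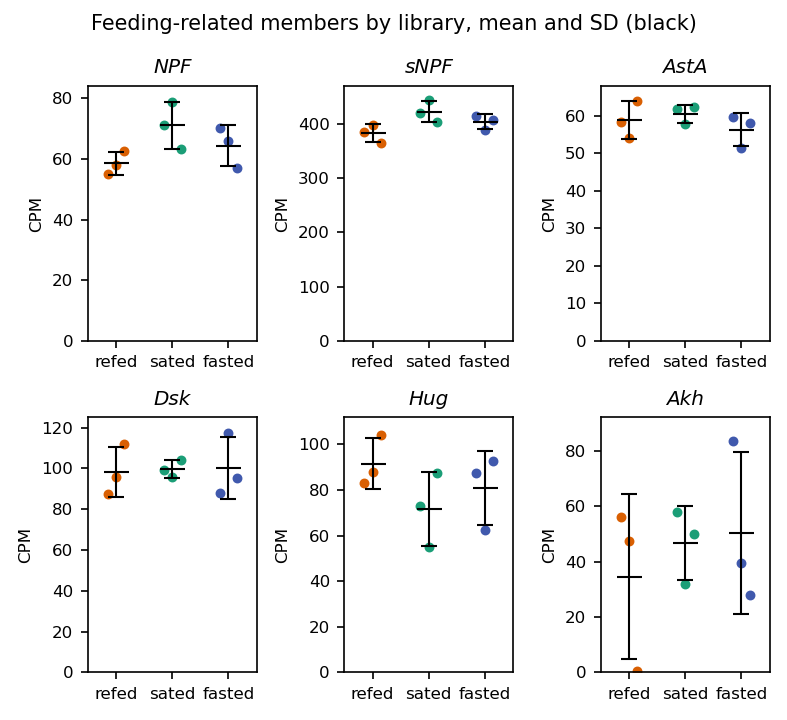
CPM of NPF, sNPF, AstA, Dsk, Hug and Akh with points for libraries 1, 2 and 3 of the refed, sated and fasted groups, and the mean ± SD in black. The refed and fasted points overlap in all of the panels, and Akh has a single refed library at 0.411 CPM.

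The other abundant members overlapped between refed and fasted brains as well. Ms had 262, 301 and 300.4 CPM in refed brains, 281, 303 and 292 CPM in sated brains, and 252, 285 and 288 CPM in fasted brains. AstC had 153, 183 and 143 CPM in refed brains, 176, 190.0 and 186 CPM in sated brains, and 167, 172 and 168 CPM in fasted brains. Dh31 had 153, 164 and 160 CPM in refed brains, 158, 157 and 177 CPM in sated brains, and 167, 159 and 172 CPM in fasted brains. In these genes the spread within a group was as wide as the distance between groups, apart from the higher sated samples of AstC. Dh44, made by neurons that respond to nutritive sugars, averaged 207 ± 20.0 CPM in refed, 213 ± 10.0 CPM in sated and 221 ± 2.15 CPM in fasted brains (SD, n = 3 each). Nplp1, which yields peptides of clock and other neurons, averaged 268 ± 5.47 CPM in refed, 259 ± 11.5 CPM in sated and 251 ± 17.0 CPM in fasted brains (SD, n = 3 each). The log2 fold changes of refed against fasted brains for the remaining members of the 30, among them Tk, SIFa, ITP, CCHa1, CCHa2 and Orcokinin, lay between -0.35 for Trissin and 0.37 for AstCC, leaving amn aside, and none passed.

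**Figure D4:**
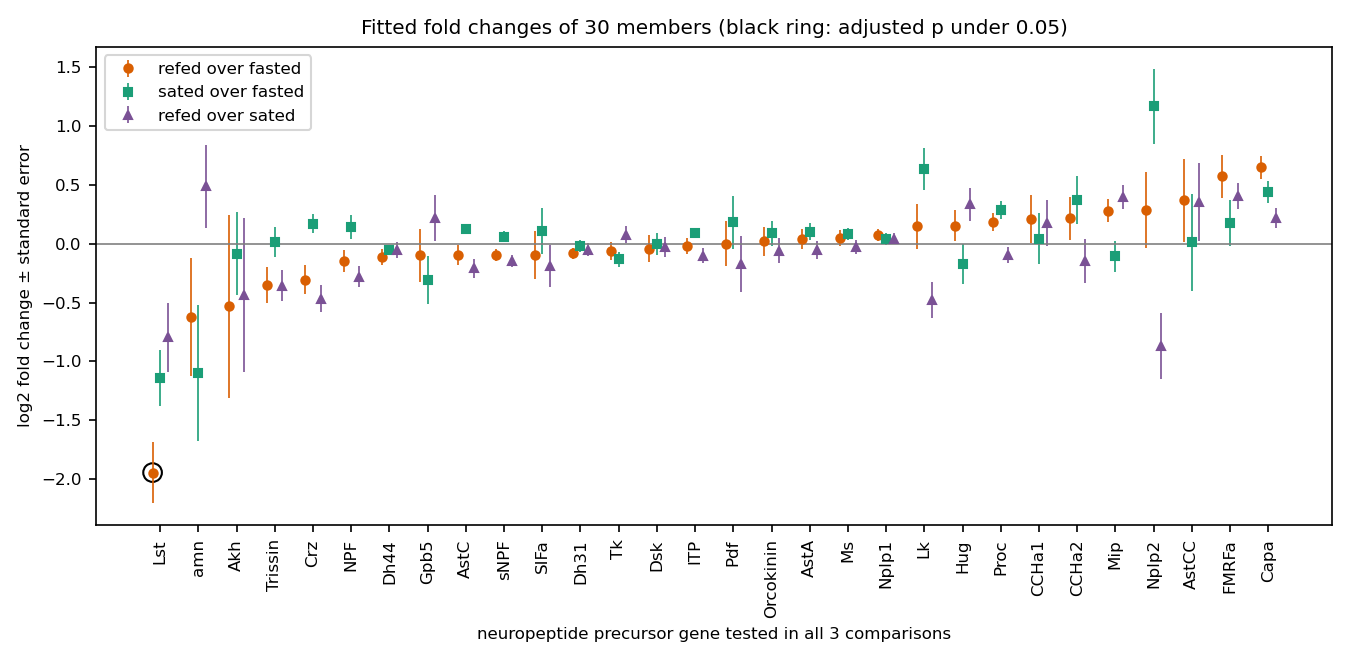
Fitted log2 fold changes ± standard error of the 30 members tested in every comparison, for refed over fasted, sated over fasted and refed over sated brains, ordered by the first of these. Lst, at -1.95 in refed over fasted brains, is the value that carries a black ring for an adjusted p under 0.05.

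The comparison of sated with fasted brains sets flies on their usual food against flies without food. None of the 30 members tested passed in edgeR, where 0.268% of the 8957 genes tested did. Without adjustment 6 members had a p under 0.05, against 9.72% of all genes tested, with 5 higher in sated brains (5.05% of all genes) and 1 lower (4.68%). DESeq2's Wald test called 2 of the 39 members it tested, where it called 110 of 14657 genes. The sated and fasted samples did not overlap for 8 members, against 14.4% of all genes tested, with sated brains higher for 6 (7.69% of all genes) and lower for 2 (6.71%). The median log2 fold change was 0.07 over the members and -0.00066 over all genes, and 20 of the 30 members had a value above 0, against 49.8% of all genes. By role, the median was 0.03 for the feeding and energy precursors, 0.04 for those of water and ion balance and 0.09 for those of clock, sleep, stress, memory and muscle. Nplp1 and Nplp2 had 0.04 and 1.17. The summed retina and fat body markers were also higher in every sated than in every fasted library, with none of the 6 retina and 2 fat body markers tested past the threshold. Most of the fat body sum came from apolpp, while Cg25C, the other fat body marker tested, overlapped between the groups. The part of the retina and fat body markers in these member values was not tested. This comparison and the one above share the 3 fasted samples.

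Lst and Capa again had the smallest p-values. Lst in sated against fasted brains had a log2 fold change of -1.14 (SE 0.24) and Capa had 0.44 (SE 0.09), each with an adjusted p of 0.103 in edgeR. These were the 2 members DESeq2 called, with adjusted p-values of 0.0421 for Lst and 0.0279 for Capa. Lst passed in edgeR as well, at -1.25 (adjusted p = 0.0301), once the opposite-strand share of each library was added as a covariate.

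Proc, Nplp2 and Lk came next. Proc encodes proctolin, a peptide that acts with transmitters at muscle. It had 77.2, 80.6 and 87.6 CPM in refed brains, 90.2, 81.0 and 89.0 CPM in sated brains, and 70.7, 64.7 and 76.9 CPM in fasted brains. All samples of both fed groups lay above all fasted samples, and the log2 fold change of sated against fasted brains was 0.29 (SE 0.07, edgeR adjusted p = 0.199). Lk encodes leucokinin, which drives fluid secretion and shapes meal size. It had 6.88, 8.15 and 6.72 CPM in refed brains, 10.4, 10.5 and 9.32 CPM in sated brains, and 5.17, 6.81 and 7.29 CPM in fasted brains. The sated samples of Lk lay above all others, with a log2 fold change of 0.64 against fasted brains (SE 0.18, edgeR adjusted p = 0.251). The antisense gene asRNA:CR44843 overlaps Lk, whose opposite-strand reads were 0.465 times its own.

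Nplp2 encodes a neuropeptide-like precursor whose product has also been found in hemolymph. It had 30.7, 18.5 and 15.5 CPM in refed brains, 46.1, 22.7 and 47.9 CPM in sated brains, and 18.5, 25.0 and 10.5 CPM in fasted brains. Sated replicates 1 and 3 were high, while sated replicate 2 lay within the fasted range. The log2 fold change of sated against fasted brains was 1.17 (SE 0.32, edgeR adjusted p = 0.238). Of the fat body markers, apolpp, a lipoprotein gene, had 1455, 1201 and 995 CPM in refed brains, 2146, 1708 and 2385 CPM in sated brains, and 1483, 1354 and 1235 CPM in fasted brains. Cg25C had 261, 269 and 277 CPM in refed brains, 263, 232 and 320 CPM in sated brains, and 244, 195 and 256 CPM in fasted brains. Its sated range overlapped both others. The sum of the 5 fat body markers was 1274 to 1717 CPM in refed, 1943 to 2706 CPM in sated and 1493 to 1728 CPM in fasted brains. The more specific markers were near 0, with at most 0.524 CPM for Lsp2, 0.601 CPM for Lsp1gamma and 1.397 CPM for Fbp1 in any library. The part of fat body in the Nplp2 values was not tested.

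Refed and sated brains were also compared directly, which sets a single glucose meal after a fast against regular feeding. None of the 31 members tested passed in edgeR's quasi-likelihood test, where 0.179% of the 8931 genes tested did, and DESeq2 called none either. Without adjustment 12 members had a p under 0.05, against 11.5% of all genes tested, with 4 higher in refed brains (6.08% of all genes) and 8 lower (5.42%). The samples did not overlap for 8 members, against 18.2% of all genes, with refed brains higher for 3 (10.1%) and lower for 5 (8.08%). The median log2 fold change was -0.06 over the members and -0.0030 over all genes, and 10 of the 31 had a value above 0, against 49.1% of all genes. The sums of the retina markers and of the fat body markers given above were also lower in every refed than in every sated library. Of the 8 retina markers 2 passed as lower, and none of the fat body markers did. Most of the fat body sum was apolpp, and Cg25C overlapped between these groups. The part of the retina and fat body markers in these member values was not tested. Crz was lower in every refed than in every sated sample, at a log2 fold change of -0.47 (SE 0.11, edgeR adjusted p = 0.138). Without refed replicate 3, which was the highest refed sample, it was -0.59 and passed (edgeR adjusted p = 0.0270). Mip and FMRFa were above every sated sample, with log2 fold changes of 0.40 (edgeR adjusted p = 0.170) and 0.41 (edgeR adjusted p = 0.186). NPF and Lk lay below every sated sample, at -0.28 (edgeR adjusted p = 0.254) and -0.48 (edgeR adjusted p = 0.261). Lst had a log2 fold change of -0.79 (SE 0.29, edgeR adjusted p = 0.340) and Capa of 0.22 (SE 0.09, edgeR adjusted p = 0.380), so neither passed although their samples did not overlap.

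The gene amn (amnesiac, which acts in memory and sleep) could not be read from the same counts with confidence. It lies on chromosome X from 19886108 to 19890060 and overlaps the exons of Hers on the other strand, from which its opposite-strand reads cannot be told apart. The libraries held 25, 27 and 33 amn-strand reads in refed, 15, 25 and 13 in sated, and 42, 42 and 13 in fasted brains. On the opposite strand there were 291, 312 and 381 reads in refed, 274, 292 and 298 in sated, and 217, 193 and 331 in fasted brains. Over the 9 libraries the opposite strand held 11.0 times as many reads. The amn-strand level was 7.75 and 8.41 CPM in fasted replicates 1 and 2 and 1.66 CPM in fasted replicate 3, and the opposite-strand shares of these libraries were 24.6%, 28.5% and 9.59%. The log2 fold change of refed against fasted brains was -0.62 (SE 0.50, edgeR adjusted p = 0.805), and 0.73 once the opposite-strand share of each library was added as a covariate. Without fasted replicate 3 it was -1.11 and passed (edgeR adjusted p = 0.0373). Among the other members with over 100 reads, the next highest ratios of opposite-strand to own reads were 0.822 for Gpb5, 0.465 for Lk and 0.382 for SIFa.

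**Figure D5:**
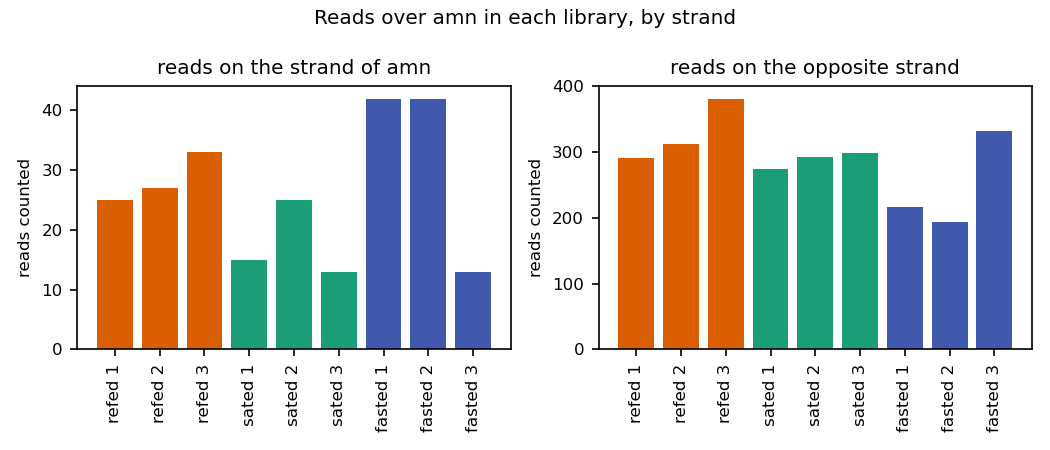
Reads counted over amn in each refed, sated and fasted library, on the strand of amn at left and on the opposite strand at right. The opposite strand held between 193 and 381 reads in a library, against 13 to 42 on the strand of amn.

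Genes that make, release, clear and receive these peptides were taken from lists. Of the 18 listed genes of peptide processing and release, 16 were tested in each comparison and none passed in edgeR in either direction. The smallest p-values of that list were those of 7B2 and Pal2 in refed against fasted brains, with log2 fold changes of 0.09 and 0.08, those of Syt7 and Pal2 in sated against fasted brains, with 0.09 and 0.06, and those of QC and Syt7 in refed against sated brains, with -0.69 and -0.21. 7B2 assists the convertase encoded by amon, Pal2 takes part in amidation, QC is a glutaminyl cyclase and Syt7 is a synaptotagmin of vesicle release. The level of QC was low, at 1.82 to 2.06 CPM in refed and 2.62 to 3.70 CPM in sated brains. Phm and Pal1 were not analysed here. The 5 neprilysin genes, whose products degrade peptides, also had no gene past the threshold, with 4 tested. Nep2 and Nep3 had the smallest p-values of these against fasted brains, with log2 fold changes of 0.41 and -0.11 in refed and 0.34 and -0.06 in sated brains.

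All 35 listed peptide receptor genes were tested, and none passed in any of the comparisons. TrissinR and AkhR had the smallest p-values in refed against fasted brains, with log2 fold changes of -0.23 (edgeR adjusted p = 0.697) and 1.02 (edgeR adjusted p = 0.705). In sated against fasted brains these were AkhR, at 1.44 (edgeR adjusted p = 0.267), and TkR99D, at 0.24 (edgeR adjusted p = 0.342). In refed against sated brains SPR, a receptor of the myoinhibitory peptides, had -0.23 (edgeR adjusted p = 0.0803) and Proc-R had -0.30 (edgeR adjusted p = 0.177). The summed level of the receptors was 1039 to 1066 CPM in refed, 1115 to 1137 CPM in sated and 1077 to 1128 CPM in fasted brains. The refed sums lay below all others, but narrowly so against fasted brains. SPR had the highest level of these genes, at 160 to 166 CPM in refed, 185 to 199 CPM in sated and 167 to 181 CPM in fasted brains. The order of the sums therefore rests in part on SPR.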

How the data were processed

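The authors aligned the reads of 9 libraries with STAR and deposited raw counts per gene for each strand choice, without normalization. The submitters' processing notes name BDGP6, SAMtools 1.4, HTSeq and DESeq2 1.18.0. The gene-strand counts were used. Coordinates and exon lengths come from Ensembl release 115 of BDGP6, whose release may differ from the one used for counting. Counts were tested in R 4.3.3 with edgeR 4.0.16 (filterByExpr, TMM, quasi-likelihood test, Benjamini-Hochberg adjustment), and with DESeq2 1.42.0 as an alternative. Each standard error was obtained from the fitted change and its F statistic, as |change|/√F. The test code was tested on simulated data. Reads assigned to no gene on the counted strand, between 26.4% and 43.7% of uniquely mapped reads by library, were left out. They include reads over genes on the opposite strand. Reads carry no molecular identifiers, so counts are not numbers of molecules.

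Members and lists were chosen with earlier results of these data known. Values of each sample are given for the 5 members with the smallest p in a comparison, members past the threshold in a setting tried, the 6 highest per kilobase and NPF, sNPF, AstA, Dsk, Akh and Hug. Sequences are not used here.

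The alternatives tried were RLE and upper-quartile scaling, no count filter or at least 10 counts in every sample, one fit over all 9 samples, a replicate block, the unstranded or opposite-strand column, robust empirical Bayes, a strand-share covariate, and each library left out in turn. Of the gene lists, those past the threshold are named or, where there is none, those with the smallest p.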

Additional observations from a re-analysis of the deposited data

Results flagged for a closer look

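For sNPF and Crz, every refed sample lay below the fasted mean and every sated sample above it. The log2 fold change of refed against sated brains was -0.148 for sNPF (adjusted p = 0.329 in edgeR's quasi-likelihood test) and -0.466 for Crz (adjusted p = 0.138 in edgeR). Neither difference passed the threshold. The fasted means were 404.2 CPM for sNPF and 32.9 CPM for Crz. Sated replicate 3 had 404.4 CPM of sNPF, so its place above the fasted mean was marginal. How many of all genes show this order was not counted.

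The opposite-strand reads of amn, left out of the gene-strand counts, were 11.0 times its own reads over the 9 libraries. Hers is annotated on that strand.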

How the results depend on the processing

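Between refed and fasted brains 1 member passed. It was 2 with DESeq2, without a filter, with all 9 samples in one fit, in the unstranded column and with robust empirical Bayes, in each case Lst and Capa. It was 0 in the opposite-strand column, and between 0 and 3 with 1 sample left out in turn. The 3 (Lst, Capa and amn) came without fasted replicate 3, when 264 genes passed in all, against 10 in the main comparison, and the 0 without each of the others. Between sated and fasted brains the main count was 0. It was 2 with DESeq2, 3 without a filter (Lst, Capa and Nplp2), 1 in the unstranded column, 2 with robust empirical Bayes, 1 with each library's opposite-strand share as covariate, and 0 with any 1 sample left out. Between refed and sated brains the main count was 0. It was 3 without a filter (Crz, Mip and Nplp2) and between 0 and 1 with 1 sample left out, the 1 being Crz without refed replicate 3. Over all genes, the alternatives set out at the start called 0 to 264 genes between refed and fasted, 0 to 110 between sated and fasted and 2 to 121 between refed and sated brains, against 10, 24 and 16.

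An alternative chosen after the data were seen kept the libraries with at most 20% opposite-strand reads, which leaves 1 fasted sample, assumed to vary like the other groups. In that fit the log2 fold change of Lst was -2.21 in refed and -1.52 in sated against fasted brains. Nplp2 had 2.17 in sated against fasted brains. With 1 fasted library, no count of members passing is given. There the log2 fold change of refed against fasted brains turned to 1.17 for amn, 0.043 for NPF, 0.048 for Dsk, 0.31 for Akh and -0.017 for Hug.

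With the replicate number as a block, 0 members passed between refed and fasted brains (Lst, adjusted p = 0.0638 in edgeR), 1 between sated and fasted brains (Capa, adjusted p = 0.0319 in edgeR) and 0 between refed and sated brains. The deviations of same-numbered samples from their group means correlated between -0.0014 and 0.179 for refed and fasted, 0.0851 and 0.397 for sated and fasted, and -0.109 and -0.0028 for refed and sated samples. Only 2, 4 and 0 of 6 samples correlated best with their own number, so the numbers were not read as pairs.

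Signs also turned in refed against fasted brains under other settings, in each case for a value that had missed the threshold. In the opposite-strand column the log2 fold change was -0.024 for Capa, -0.27 for Mip, 0.70 for amn, 0.24 for NPF, 0.23 for Dsk and -0.26 for Hug. In the unstranded column it was 0.18 for amn and 0.019 for Dsk. With the share of opposite-strand reads as covariate it was 0.73 for amn, -0.0048 for AstA, 0.038 for Dsk, 0.18 for Akh and -0.038 for Hug. With 1 sample left out it ran between -0.013 and 0.10 for AstA, -0.13 and 0.092 for Dsk, and -1.06 and 0.055 for Akh. The cause of these turns was not tested. The median log2 fold change of the members ran between -0.043 and 0.053 over the settings for refed against fasted brains, so its sign turned too. For sated against fasted brains it ran between 0.048 and 0.11. For refed against sated brains it ran between -0.21, in the opposite-strand column, and -0.048. The median level of the members, 32.4 CPM, was 32.4 CPM without TMM and 36.2 CPM from the unstranded column. Low counts limit Lst, with 12 reads in refed replicate 2, and AstCC, with 7 in fasted replicate 2.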
